A study of Mus musculus with 4 samples.

Results

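The genes described here serve the export of immunoglobulin A (IgA) into milk and the identity of the plasma cells that make it. They are Pigr, Jchain, Igha, Sdc1, Prdm1 and Irf4, which is 6 of the 12393 genes named on the array, read by 13 of its 22690 probe sets. Members were found by gene symbol in the platform's probe table, with older symbols joined by gene ID. The list was drawn up with intensities of these same 4 arrays known, so all values below are descriptions and no test was made. RNA came from whole mammary glands of nulliparous females of FVB background. The 4 groups were MMTV-PPARd mice on GW501516, MMTV-PPARd mice on standard chow, wild-type littermates on GW501516 and wild-type littermates on standard chow. GW501516, which activates the nuclear receptor PPARδ, was fed in the chow for 1 week, at 0.005% by the protocol and 0.001% by a treatment tag, a conflict the values could not settle. The MMTV promoter, which drives the PPARδ transgene, comes from the mouse mammary tumour virus and is active in mammary epithelium and also in other tissues such as salivary gland and lymphoid cells. Each group was 1 array hybridised with RNA pooled from 5 mice, so no group has a replicate and no difference has an error. The mice were matched for age, but no age was stated.

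IgA is the main antibody of mucosal surfaces and of mouse milk. Plasma cells in the tissue secrete it as a polymer held together by the J chain, and the polymeric immunoglobulin receptor on the basal side of epithelial cells binds that polymer, carries it through the cell and releases it into the lumen with a fragment of the receptor attached. In the mammary gland, IgA plasma cells are known to gather in late pregnancy and lactation, drawn by the chemokine Ccl28. Pigr encodes the receptor, Jchain the joining chain and Igha the constant region of the IgA heavy chain. Sdc1 encodes syndecan-1, a heparan sulfate proteoglycan of plasma cells that epithelial cells also carry. Prdm1 (Blimp-1) and Irf4 encode transcription factors needed to form plasma cells, and both are also used by other cells, among them T cells and macrophages or dendritic cells.

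The sequences before the transcription starts of Pigr and Jchain are shown because these genes carried the largest differences and followed different patterns over the arrays. RefSeq promoters (GRCm38.p6) were found for 5 of the 6 members, and for Igha none was used here. Each line gives the 250 bases before the start on the gene's own strand, 5′ to 3′, with every match to the motifs searched in capitals.
Pigr, chr1:130826434-130826683, plus strand: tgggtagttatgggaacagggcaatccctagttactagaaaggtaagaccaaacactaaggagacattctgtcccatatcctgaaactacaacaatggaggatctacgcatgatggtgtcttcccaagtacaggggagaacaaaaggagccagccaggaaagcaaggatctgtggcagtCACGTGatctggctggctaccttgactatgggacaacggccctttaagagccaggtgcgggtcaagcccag
Jchain, chr5:88527898-88528147, minus strand: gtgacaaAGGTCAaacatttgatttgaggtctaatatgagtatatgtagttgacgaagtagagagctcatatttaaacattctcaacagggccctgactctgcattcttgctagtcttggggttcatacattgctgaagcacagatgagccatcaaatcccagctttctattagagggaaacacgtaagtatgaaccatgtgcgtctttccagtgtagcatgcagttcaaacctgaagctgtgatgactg

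The motifs, searched on both strands, were the E-box CACGTG, the nuclear receptor half-site AGGTCA, its direct repeat AGGTCANAGGTCA of the kind bound by PPAR and RXR, the interferon response motif GAAANNGAAA, the NF-kB motif GGGANNTTCC and the STAT motif TTCNNNGAA. The direct repeat contains the half-site, so those motifs overlap. The Pigr window held 1 E-box, from 71 to 66 bases before the start, and 6.02% of 32851 promoter windows of the same length held one. The Jchain window held 1 half-site, from 243 to 238 bases before the start, as did 14% of all windows. No other match was present in the windows of the 5 members, and the direct repeat was found in 0.0335% of all windows. These are matches of letters, not binding sites.

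Ppard intensity, which checks the genotype labels, was 4223.5 and 1943.0 in MMTV-PPARd mice on GW501516 and on chow, against 1.5 and 2.1 in wild type on GW501516 and on chow. The MMTV-PPARd chow array stood apart in control signals. BioB, a bacterial control transcript, read 32.4 on it against 438.1 to 519.0 on the other 3 arrays, and the middle Gapdh control probe set read 2986.1 against 7171.3 to 10825.8. This array enters the transgene comparison on chow and the GW501516 comparison in MMTV-PPARd mice, with opposite sign, and the transgene comparison on GW501516 is free of it. Values under 20.5, the 25th percentile of all values, were raised to that floor before a fold was taken, and "at least" before a fold marks a bound set by a value at the floor. Genes were counted among 7835 that reached 139, the median of all values, on at least 1 array. Of the 6 members 5 passed, Prdm1 did not, and Pigr and Jchain passed through the MMTV-PPARd arrays only. Whole glands were used, so more cells of a type and more RNA per cell cannot be told apart.

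Pigr, the epithelial IgA receptor, was high on the MMTV-PPARd arrays and near or under the floor on the wild-type arrays. Its brighter probe set read 2114.7 and 489.5 in MMTV-PPARd mice on GW501516 and on chow, against 36.5 and 18.1 in wild type on GW501516 and on chow. The other probe set read 1812.1 and 370.7 in MMTV-PPARd mice on GW501516 and on chow, against 5.1 and 12.1 in wild type on GW501516 and on chow. On both probe sets each MMTV-PPARd value lay far above each wild-type value. On chow the transgenic pool was at least 23.9-fold higher by the brighter probe set and at least 18.1-fold by the other. On GW501516, where the odd chow array plays no part, the transgenic pool was 57.9-fold and at least 88.4-fold higher. Among MMTV-PPARd mice Pigr was 4.32-fold and 4.89-fold higher on GW501516 than on chow. In wild type the brighter probe set was at least 1.78-fold higher on GW501516 and the other was under the floor on both diets.

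**Figure D1:**
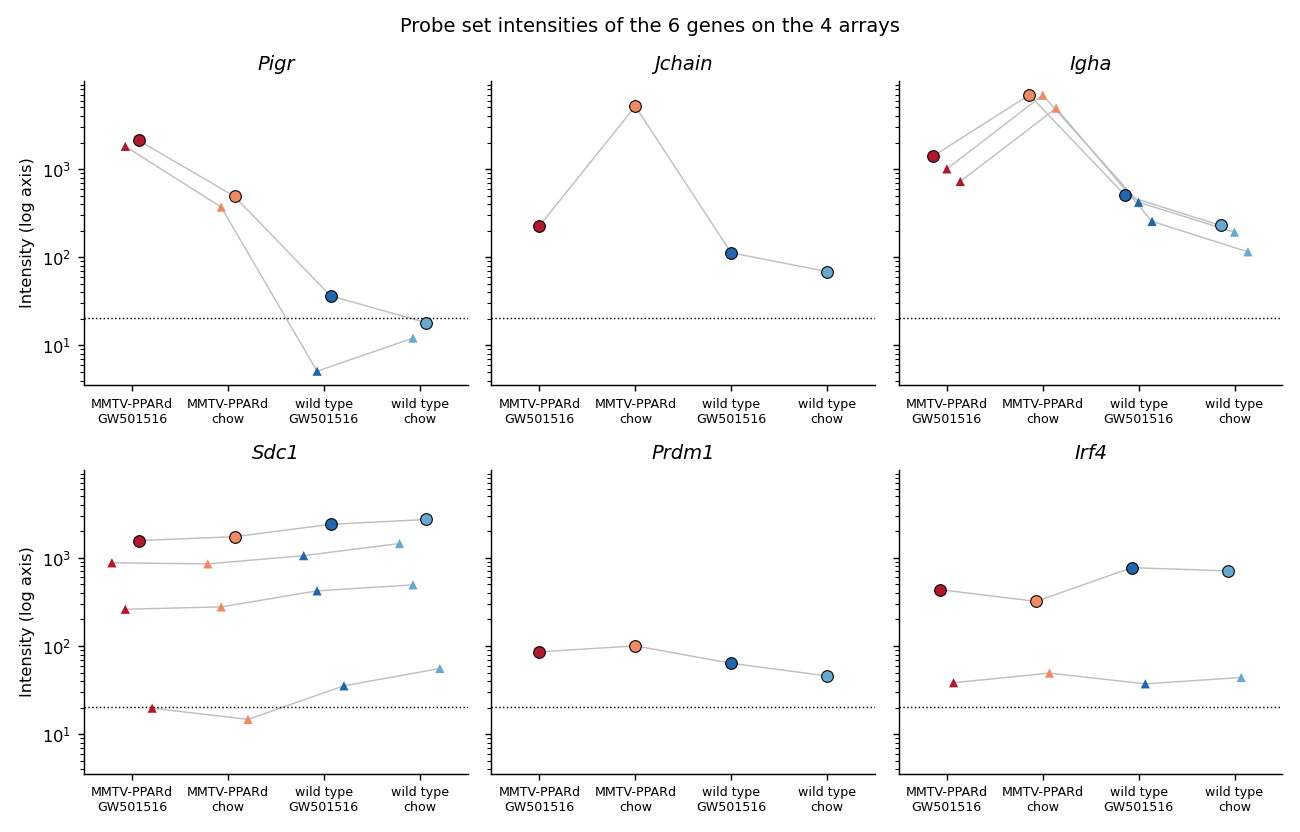
Intensity (log axis) of every probe set of the 6 genes on the 4 arrays. Circles with a black rim mark the brightest probe set of a gene, triangles its other probe sets, grey lines join the values of one probe set, and the dotted line is the floor of 20.5. Pigr is high on both MMTV-PPARd arrays, Jchain and Igha peak on the MMTV-PPARd chow array (5160.7 and 6954.9), and Sdc1, Prdm1 and Irf4 vary less.

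Other genes of transport across epithelium did not share the size of the Pigr difference. Of 10 measured genes of immunoglobulin and endosomal transport, the MMTV-PPARd pool on chow was higher by 2-fold or more for 2 and lower for 1, and the median log2 difference was 0.30 against 0.020 over all 7835 genes. On GW501516 it was higher by 2-fold or more for 1 and lower for 0, and the median was 0.062 against 0.0016 over all genes. The shares of all 7835 genes past 2-fold were 5.46% higher and 3.7% lower on chow, and 2.82% and 1.19% on GW501516. Ap1m2, the epithelial subunit of the clathrin adaptor that sorts proteins to the basolateral side, was higher on both diets. It read 936.8 and 947.2 in MMTV-PPARd mice on GW501516 and on chow, against 415.7 and 300.7 in wild type on GW501516 and on chow, which is 2.25-fold and 3.15-fold higher. Rab17, a small GTPase of epithelial transcytosis, was 2.52-fold higher on chow and 1.06-fold higher on GW501516. Fcgrt, the receptor that carries IgG, went the other way and was 2.10-fold lower on chow (1312.4 in MMTV-PPARd mice against 2757.3 in wild type) and 1.17-fold lower on GW501516. Yes1, a Src-family kinase known to act on receptor transcytosis, was 1.67-fold higher on chow and 1.27-fold lower on GW501516.

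Of 11 measured genes known to regulate Pigr or to signal in that pathway, 0 differed at least 2-fold between genotypes on either diet. On chow 5.46% of the 7835 counted genes passed that limit upward and 3.7% downward, against 2.82% and 1.19% on GW501516. With shares this small, 0 of 11 is near the background, and nothing is read from it. The median log2 difference of the 11 was -0.11 on chow and 0.17 on GW501516. Stat5a, which transmits the prolactin signal, read 1074.2 and 1311.2 in MMTV-PPARd mice on GW501516 and on chow, against 621.0 and 745.9 in wild type on GW501516 and on chow, so it was 1.73-fold and 1.76-fold higher. Myd88, an adaptor of Toll-like receptors, was 1.61-fold higher on GW501516 and 1.18-fold lower on chow. Relb and Il17ra were lower on GW501516 in both genotypes. Relb, a subunit of NF-kB, was 2.81-fold lower on GW501516 in wild type and 2.21-fold lower in MMTV-PPARd mice. Il17ra, the receptor of interleukin 17, was 2.50-fold lower on GW501516 in wild type and 1.27-fold lower in MMTV-PPARd mice. The cytokines Tnf, Ifng, Il1b, Il4 and Il17a stayed under the filter of 139 on all 4 arrays.

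Part of the luminal epithelial and milk protein genes were higher in MMTV-PPARd mice, as Pigr was. The share of all genes at least 2-fold higher in the MMTV-PPARd pool was 5.46% on chow and 2.82% on GW501516. Of 12 measured luminal markers, 7 were at least 2-fold higher in the MMTV-PPARd pool on chow and 1 on GW501516, and their summed intensity was 32597.2 and 29435.6 in MMTV-PPARd mice on GW501516 and on chow, against 24209.9 and 21678.9 in wild type on GW501516 and on chow, with 0 members under the floor. Krt8 and Krt18, the simple keratins of luminal cells, differed by 1.02-fold to 1.47-fold between genotypes. Muc1, an apical mucin, was 7.29-fold higher on GW501516 and 7.49-fold higher on chow. Ehf and Cdh1 were 5.88-fold and 4.03-fold higher on chow, while on GW501516 Ehf was 1.66-fold higher and Cdh1 1.12-fold lower. Milk protein and alveolar genes numbered 11, of which 8 exceeded wild type at least 2-fold on GW501516, and 7 did so on chow while 1 was lower. Of 5 measured basal markers 2 were at least 2-fold higher on chow and 1 on GW501516, with Krt14 at 11.3-fold and 8.41-fold. With GW501516 in MMTV-PPARd mice, where Pigr was 4.32-fold higher, 1 of the 12 luminal markers was at least 2-fold higher and 2 lower, and the median log2 difference was -0.018. The lower milk gene on chow was Lalba, at 3.93-fold. The part of these markers in the Pigr difference was not tested.

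Jchain and Igha followed another pattern, in which 1 array stood far above the other 3. Jchain, read by 1 probe set, had an intensity of 227.0 and 5160.7 in MMTV-PPARd mice on GW501516 and on chow, against 112.4 and 68.9 in wild type on GW501516 and on chow. Igha read 1408.6 and 6954.9 in MMTV-PPARd mice on GW501516 and on chow, against 502.6 and 229.4 in wild type on GW501516 and on chow, by the brightest of its 3 probe sets. The order of the arrays was thus the same for both genes, with MMTV-PPARd on chow highest, then MMTV-PPARd on GW501516, wild type on GW501516 and wild type on chow, and none of these values lay under the floor. The other Igha probe sets gave 1005.6 and 724.6 in MMTV-PPARd mice on GW501516 and 6885.7 and 4908.3 in MMTV-PPARd mice on chow. In wild type they gave 420.4 and 255.2 on GW501516 and 192.8 and 115.3 on chow, so all 3 probe sets placed the arrays in one order. Since they were read on the same arrays, such probe sets are no replicates. The name endings of these Igha probe sets mark designs that can read several transcripts of the gene or, for the ending _x_at, related genes.

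On chow, the MMTV-PPARd pool was 74.9-fold higher for Jchain and 30.3-fold to 42.6-fold higher over the Igha probe sets. On GW501516 it was 2.02-fold higher for Jchain and 2.39-fold to 2.84-fold higher for Igha. Pigr, Jchain and Igha were thus each at least 2-fold higher in MMTV-PPARd mice on both diets. Over all genes that passed the filter 5.46% were at least 2-fold higher on chow and 2.82% on GW501516, and nothing is read from this share because the genes were chosen on these arrays. Among the members the largest difference on chow was that of Jchain and the largest on GW501516 that of Pigr. The only measure of technical scatter was the difference between a gene's brightest probe set and its others, which had an SD of 0.46 (log2) on chow and 0.41 on GW501516 over 3895 genes, and which holds no scatter between arrays. The Jchain difference on GW501516 was 1.01 on the log2 scale and those of Igha were 1.26 to 1.51.

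**Figure D2:**
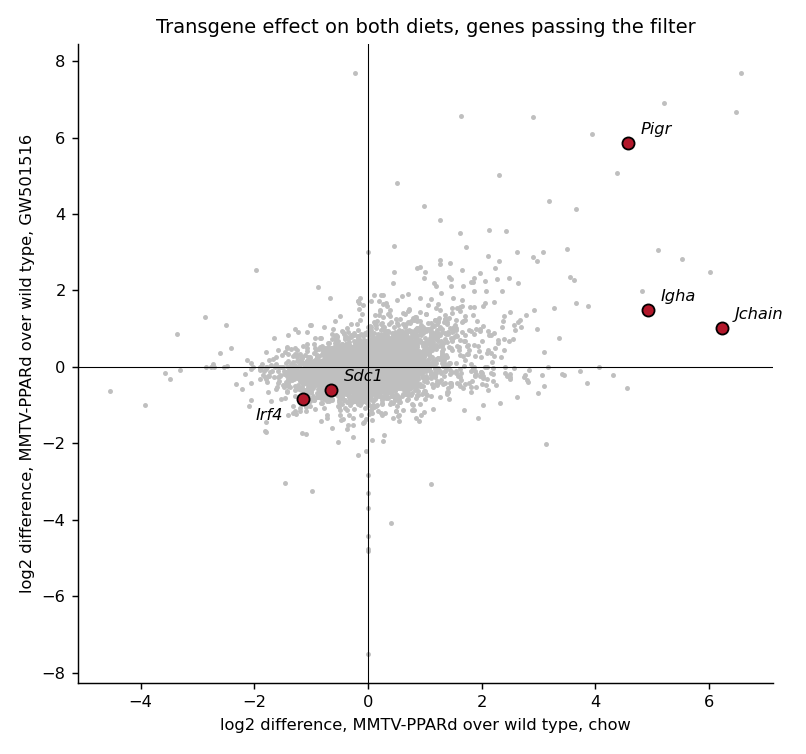
Log2 difference of intensity, MMTV-PPARd over wild type, on chow (horizontal axis) and on GW501516 (vertical axis) for the 7835 genes that passed the filter, in grey, with 5 of the members in red. Pigr lies high on both axes (4.58 and 5.86), Jchain far out on chow (6.23) and at 1.01 on GW501516, and Irf4 and Sdc1 lie below 0 on both. The axes share no array.

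Between diets Jchain and Igha differed in opposite directions in the genotypes. With 1 array per group, an effect of diet and a difference between arrays or tissue pieces cannot be told apart. In MMTV-PPARd mice Jchain was 22.7-fold lower on GW501516 than on chow, and Igha was 4.94-fold to 6.85-fold lower. In wild type Jchain was 1.63-fold higher on GW501516 and Igha 2.18-fold to 2.21-fold higher. Of all genes that passed the filter, 3.98% were at least 2-fold higher and 4.07% lower on GW501516 in MMTV-PPARd mice, and 3.18% were higher and 3.25% lower in wild type. The GW501516 effect in MMTV-PPARd mice minus that in wild type was -5.21 for Jchain and -3.44 for Igha on the log2 scale, against 1.28 for Pigr, where the wild-type chow value was under the floor. Past 2-fold in that difference lay 4.42% of genes on the higher and 5.25% on the lower side. Without the MMTV-PPARd chow array neither this difference nor the GW501516 effect in MMTV-PPARd mice can be formed, and for Jchain and Igha the transgene comparison on GW501516 then remains.

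**Figure D3:**
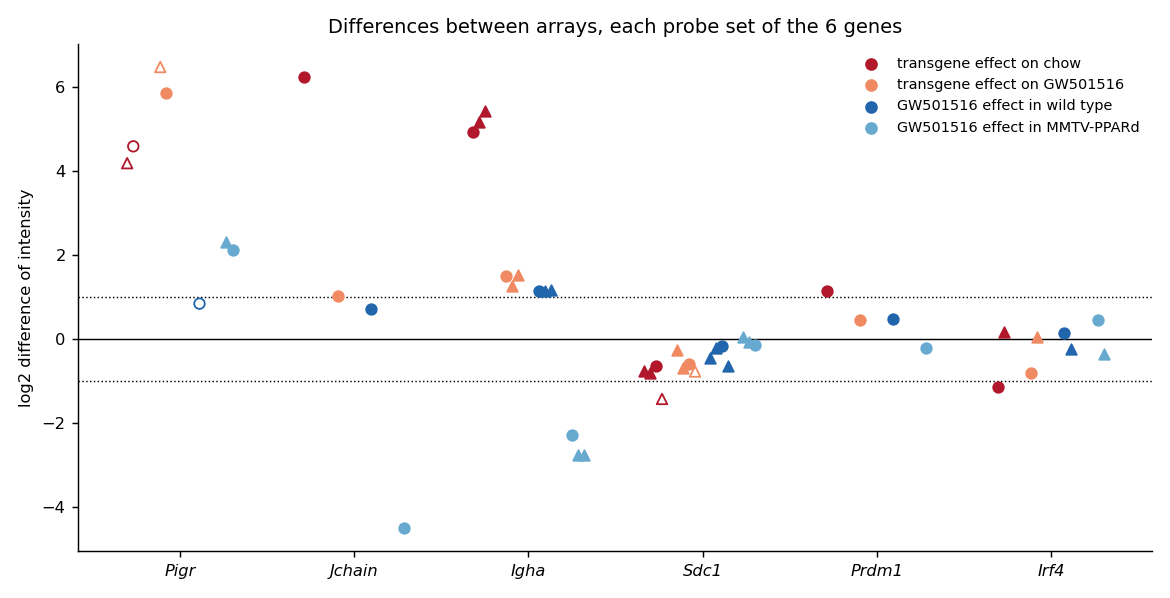
Log2 difference of intensity for each probe set of the 6 genes in the 4 comparisons, coloured by comparison. Circles are the brightest probe set, triangles the others, open symbols lower bounds against the floor, and dotted lines mark 2-fold. The transgene differences of Pigr, Jchain and Igha lie above the upper dotted line on both diets, and GW501516 in MMTV-PPARd mice gives 2.11 for Pigr and -4.51 for Jchain.

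Other immunoglobulin genes went both ways on chow. Of 52 other probe sets listed for immunoglobulin genes alone, 12 passed the filter, of which 6 were at least 2-fold higher and 3 lower in the MMTV-PPARd pool on chow, with a median log2 difference of 0.91 and a range from -1.64 to 3.14. On GW501516, 2 were at least 2-fold higher and 0 lower. The shares of all genes that passed the filter were 5.46% higher and 3.7% lower on chow, and 2.82% and 1.19% on GW501516. Ighm, the IgM heavy chain, had 5 probe sets that passed, and they disagreed, with 3 at least 2-fold higher and 2 lower on chow and log2 differences from -1.51 to 3.14, so no single direction is given for it. The variable segment gene Ighv14-2 read 20.0 and 263.5 in MMTV-PPARd mice on GW501516 and on chow, against 15.9 and 819.8 in wild type on GW501516 and on chow, and was 3.11-fold lower on chow. Igkv8-30, a kappa variable segment, read 138.9 and 2194.9 in MMTV-PPARd mice on GW501516 and on chow, against 91.3 and 1072.3 in wild type on GW501516 and on chow, and was 2.05-fold higher on chow. The lambda segment Iglv1 was 5.32-fold higher on chow, at 184.7 in MMTV-PPARd mice against 34.7 in wild type. The 3 probe sets listed for several kappa genes, Igkc among them, were 1.58-fold to 2.41-fold higher on chow and 1.52-fold to 2.53-fold higher on GW501516. Igkv9-120 was 1.72-fold higher on chow.

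With GW501516 most of the other immunoglobulin probe sets were lower in both genotypes, whereas Igha was higher in wild type. In wild type 0 of the 12 were at least 2-fold higher and 7 lower, and in MMTV-PPARd mice 0 were higher and 10 lower, with median log2 differences of -1.71 and -2.67. The shares of all genes that passed the filter were 3.18% higher and 3.25% lower in wild type, and 3.98% and 4.07% in MMTV-PPARd mice. Igkv8-30 was 11.7-fold lower in wild type and 15.8-fold lower in MMTV-PPARd mice. The kappa probe sets were 4.83-fold to 9.41-fold lower in wild type and 3.65-fold to 8.97-fold lower in MMTV-PPARd mice. Related immunoglobulin genes read by one probe set cannot be told apart.

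Between genotypes on chow, B cell and T cell markers did not follow Igha. With GW501516, 5 of 5 measured B cell markers and 8 of 9 T cell markers were at least 2-fold lower in each genotype. Igha was also lower on GW501516 in MMTV-PPARd mice but higher in wild type. Of all genes, 3.25% were at least 2-fold lower on GW501516 in wild type and 4.07% in MMTV-PPARd mice. Between genotypes on chow 5.46% were higher and 3.7% lower. Of 5 measured B cell markers, 0 were at least 2-fold higher and 2 lower in the MMTV-PPARd pool on chow, and their summed intensity was 111.1 and 1378.7 in MMTV-PPARd mice on GW501516 and on chow, against 174.4 and 2700.1 in wild type on GW501516 and on chow. Under the floor lay 3 of them in MMTV-PPARd mice on GW501516 and 2 in wild type on GW501516. Ms4a1 (CD20), a surface protein of B cells that plasma cells lose, read 17.6 and 625.3 in MMTV-PPARd mice on GW501516 and on chow, against 24.5 and 1027.7 in wild type on GW501516 and on chow. Cd79b, of the B cell receptor, was 2.50-fold lower on chow and 2.31-fold lower on GW501516 in MMTV-PPARd mice. Of 9 T cell markers 8 were at least 2-fold lower on chow in MMTV-PPARd mice, with summed intensities of 1115.5 and 2600.8 in MMTV-PPARd mice on GW501516 and on chow, against 1196.9 and 6919.9 in wild type on GW501516 and on chow. The wild-type chow array thus had the highest B and T cell signal of the 4 and the lowest Igha and Jchain intensity. Of the lymph node vessel and stroma genes 3 were measured, with 0 at least 2-fold higher and 2 lower in MMTV-PPARd mice on chow, and 1 higher and 1 lower on GW501516. The higher one was Glycam1, of lymph node vessels and mammary epithelium, at 4206.7 and 8128.4 in MMTV-PPARd mice on GW501516 and on chow, against 2.2 and 9535.2 in wild type on GW501516 and on chow. Cxcl13, which attracts B cells, was 2.12-fold lower in MMTV-PPARd mice on chow and 3.38-fold lower on GW501516, and Lyve1, of lymphatic vessels, 2.67-fold and 1.37-fold lower. The part of lymph node tissue in the immunoglobulin values was not tested.

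**Figure D4:**
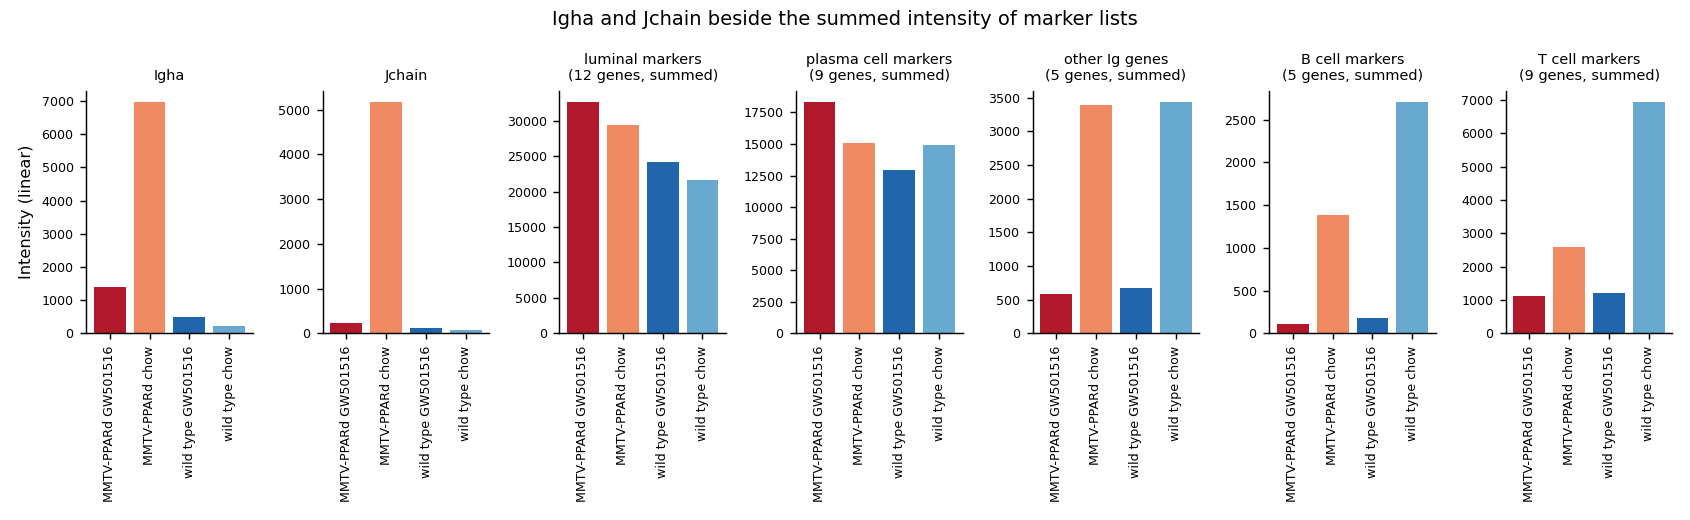
Intensity (linear axes, each panel with its own scale) of Igha and Jchain and summed intensity of 5 gene lists on the 4 arrays, each bar 1 array. Igha and Jchain stand out on the MMTV-PPARd chow array, the B and T cell sums are highest in wild type on chow (2700.1 and 6919.9), and the sum of 5 other immunoglobulin genes, which differ in direction on chow, is 3389.4 in MMTV-PPARd mice and 3428.5 in wild type on chow.

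The wild-type GW501516 array, on which Igha was 2.19-fold higher than in wild type on chow, also carried salivary gland genes. In that comparison 3 of 5 measured salivary genes, Bpifa2, Cst10 and Smr3a, were higher by 2-fold or more and 1, Prol1, lower, with a summed intensity of 9061.5 in wild type on GW501516 and 3237.7 in wild type on chow. Their sums were 2845.8 and 2788.5 in MMTV-PPARd mice on GW501516 and on chow. Most of the sum on these arrays and in wild type on chow was Amy1. It read 2818.7 and 2784.9 in MMTV-PPARd mice on GW501516 and on chow, against 4337.7 and 3079.4 in wild type. Bpifa2 read 3719 in wild type on GW501516 and 6.3 in wild type on chow, so the sums understate the salivary difference. Under the floor lay 1 of the 5 in wild type on GW501516, 3 in wild type on chow and 4 on each MMTV-PPARd array. Salivary glands hold IgA plasma cells and Pigr as well, and the part of such tissue in the wild-type Igha value was not tested. Skeletal muscle markers, with sums of 102328 in wild type on GW501516 and 11986.9 in wild type on chow, moved with the same comparison. Their sums were 98714.1 and 27946.9 in MMTV-PPARd mice on GW501516 and on chow, so they moved with the chow comparison of genotypes as well, where 8 of 10 were at least 2-fold higher in MMTV-PPARd mice. With GW501516 in MMTV-PPARd mice, the comparison in which Jchain was 22.7-fold lower and Pigr 4.32-fold higher, all 10 were at least 2-fold higher, with a median log2 difference of 1.95. The share of all genes at least 2-fold higher was 3.98% in that comparison and 5.46% between genotypes on chow. The part of muscle tissue in these values was not tested.

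Of the plasma cell genes, Sdc1 and Irf4 went against Jchain and Igha, while Prdm1 placed the arrays in the same order as they did, at low intensity. The 6 genes thus did not share one pattern. Sdc1 was lower in MMTV-PPARd mice by all 4 of its probe sets on both diets. Its brightest probe set read 1569.1 and 1735.8 in MMTV-PPARd mice on GW501516 and on chow, against 2396.8 and 2721.3 in wild type on GW501516 and on chow, which is 1.53-fold and 1.57-fold lower. The next brightest read 877.1 and 853.5 in MMTV-PPARd mice on GW501516 and on chow, against 1057.9 and 1453.0 in wild type on GW501516 and on chow. The transgenic arrays lay below the wild-type arrays on each of these probe sets, and the share of all genes that do so was not counted. The third gave 261.0 and 277.5 in MMTV-PPARd mice on GW501516 and on chow, against 422.1 and 492.9 in wild type on GW501516 and on chow. The dimmest, with at most 55.5 on any array, was at least 2.71-fold lower on chow and at least 1.72-fold lower on GW501516. Between diets the brightest Sdc1 probe set differed by 1.11-fold in MMTV-PPARd mice and 1.14-fold in wild type, lower on GW501516 in both.

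Irf4 was lower in MMTV-PPARd mice by its brighter probe set, which read 435.3 and 320.3 in MMTV-PPARd mice on GW501516 and on chow, against 772.9 and 710.5 in wild type on GW501516 and on chow. The fold was 1.78 on GW501516 and 2.22 on chow. Over all genes 3.7% were at least 2-fold lower on chow, against 1.19% on GW501516. The other Irf4 probe set lay between 37.2 and 49.2 on the 4 arrays and differed by 1.03-fold on GW501516 and 1.12-fold on chow, both higher in MMTV-PPARd mice. With the mean over both probe sets the chow difference was -0.49 on the log2 scale in place of -1.15 and no longer passed 2-fold. Prdm1 was dim on all arrays. It read 85.8 and 100.3 in MMTV-PPARd mice on GW501516 and on chow, against 63.6 and 45.7 in wild type on GW501516 and on chow, which is 1.35-fold and 2.19-fold higher. The order of its arrays was that of Jchain and Igha, but no array reached 139.

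Other plasma cell genes differed in both directions on chow. Of 9 measured markers of the list, which the epithelium also expresses in part, 1 was at least 2-fold higher and 1 lower in the MMTV-PPARd pool on chow, with a median log2 difference of 0.16. On GW501516, 2 were higher and 0 lower, with a median of 0.46. Over all genes 5.46% were higher and 3.7% lower on chow, and 2.82% and 1.19% on GW501516. Xbp1, the transcription factor that expands the secretory apparatus in plasma cells and in other secretory cells, read 11282.1 and 8276.3 in MMTV-PPARd mice on GW501516 and on chow, against 7847.8 and 8608.8 in wild type on GW501516 and on chow, so on chow it was 1.04-fold lower while Jchain was 74.9-fold higher. Tnfrsf17 (BCMA), a survival receptor of plasma cells, read 25.9 and 28.6 in MMTV-PPARd mice on GW501516 and on chow, against 13.8 and 36.7 in wild type on GW501516 and on chow, and stayed under the filter. Pou2af1, a coactivator of immunoglobulin genes in B lineage cells, was 1.73-fold lower on chow in MMTV-PPARd mice (258.8 against 446.5 in wild type). With GW501516 it was at least 21.8-fold lower in wild type and 10.1-fold lower in MMTV-PPARd mice. Cd27, a receptor of memory B, plasma and T cells, was 2.96-fold lower on chow. Tent5c, a poly(A) polymerase that stabilises secretory transcripts, was 2.15-fold higher on chow and 3.40-fold on GW501516 in MMTV-PPARd mice, and Fkbp11, a chaperone of the endoplasmic reticulum, 1.63-fold and 3.76-fold.

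Of 14 measured genes of protein folding and secretion in the endoplasmic reticulum, 0 were at least 2-fold higher and 1, Ckap4, 2.03-fold lower in the MMTV-PPARd pool on chow, with a median of 0.23. On GW501516, 0 differed by 2-fold and the median was 0.035. With 5.46% of all genes higher and 3.7% lower on chow, and 2.82% and 1.19% on GW501516, these shares are near those of all genes. Prdx4 and Ssr4 were 1.83-fold and 1.74-fold higher on GW501516, and Creld2 1.65-fold higher on chow. Of 8 measured B cell factors that Prdm1 opposes, 1 was at least 2-fold higher and 2 lower on chow. Myc was 3.20-fold higher there (1540.2 in MMTV-PPARd mice against 481.9 in wild type), and Spib, a B cell and dendritic cell factor, 2.91-fold lower. Ets1 was 3.6-fold lower on GW501516 in wild type and 2.87-fold lower in MMTV-PPARd mice, and Bach2 was 2.58-fold lower in wild type. Pax5 was at or under 14.3 on all 4 arrays.

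Of the 7 other interferon regulatory factors, relatives of Irf4, 0 differed at least 2-fold between genotypes on either diet. Irf8, a factor of B and myeloid cells, was 5.03-fold lower on GW501516 in wild type and 3.08-fold lower in MMTV-PPARd mice. In the same comparisons Irf4 was 1.09-fold and 1.36-fold higher by its brighter probe set, but 1.18-fold and 1.28-fold lower by the other. Irf5 was 2.16-fold lower on GW501516 in wild type. Irf7 was 1.94-fold lower and Irf1 1.02-fold higher on chow in MMTV-PPARd mice. Among 14 measured syndecan and heparan sulfate genes, Mmp14, a membrane protease that can shed syndecan-1, was at least 2-fold lower in MMTV-PPARd mice on chow (2.21-fold) and 0 differed on GW501516. Sdc2, Sdc3 and Hs2st1 differed by 1.04-fold to 1.80-fold between genotypes. Macrophage and dendritic markers, cells that can use Irf4 and Prdm1, had 1 of 7 at least 2-fold lower on chow, Ccr7 (3.72-fold), and 0 on GW501516. Their summed intensity was 12882.2 and 13196.5 in MMTV-PPARd mice on GW501516 and on chow, against 14674.2 and 19300.4 in wild type on GW501516 and on chow. White adipocyte markers, of which 0 of 7 differed at least 2-fold in any comparison, had a median of -0.48 on chow and -0.24 on GW501516 between genotypes, with sums of 51580.0 and 38542.4 in MMTV-PPARd mice on GW501516 and on chow, against 55857.7 and 52942.9 in wild type on GW501516 and on chow. The part of these cells in the Irf4 and Sdc1 values was not tested.

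Among the signals that bring IgA cells to the gland, Ccl28 and its receptor were dim on these arrays, and others were not. Ccl28 read 22.7 and 8.7 in MMTV-PPARd mice on GW501516 and on chow, against 13.1 and 12.3 in wild type on GW501516 and on chow, so that 3 of 4 values lay under the floor, the MMTV-PPARd chow array among them. Its receptor Ccr10 read 16.6 and 34.2 in MMTV-PPARd mice on GW501516 and on chow, against 32.3 and 37.9 in wild type on GW501516 and on chow. Of the list of homing, switching and survival genes 22 were on the array and 10 passed the filter. Against 5.46% and 3.7% of all genes, 1 of the 10 was at least 2-fold higher and 2 lower in MMTV-PPARd mice on chow. The higher one was Madcam1, the vessel ligand of gut-homing lymphocytes, at 46.1 and 202.6 in MMTV-PPARd mice on GW501516 and on chow, against 42.8 and 87.9 in wild type on GW501516 and on chow, which is 2.30-fold on chow. Ccr9, a homing receptor of gut T cells and plasma cells, was 6.51-fold lower on chow, and Itgb7, an integrin chain, 2.13-fold lower. Cxcr4, which holds plasma cells in bone marrow, was 1.62-fold higher on chow. Vcam1, an adhesion molecule of vessels, read 210.8 and 850.5 in MMTV-PPARd mice on GW501516 and on chow, against 228.2 and 543.8 in wild type on GW501516 and on chow. Madcam1, Cxcr4, Vcam1 and Tgfbr1 were highest on the array where Jchain and Igha peaked. The rest of the 10, which were Ccr9, Tnfrsf13c, Itgb7, Tnfrsf13b, Cxcl12 and Tgfbr2, were highest in wild type on chow, where Jchain and Igha were lowest. Between genotypes on chow the median log2 difference of the 10 was -0.52. Cxcl12, the ligand of Cxcr4, lay between 2085.2 and 2992.8 on the 4 arrays. With GW501516 7 of the 10 were at least 2-fold lower in wild type and 7 in MMTV-PPARd mice, against 3.25% and 4.07% of all genes. Tnfrsf13c, the receptor of the survival factor BAFF, was among them in both, at least 9.90-fold lower in wild type and at least 6.58-fold in MMTV-PPARd mice.

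The genes nearest to each member were found as those with the smallest root mean square difference of centred log2 intensities over the 4 arrays. Genes that failed the filter, or lay under the floor on an array where the member did not, could not be chosen. Nearest to Pigr were Saa1, an acute-phase protein, at 0.52, Slc34a2, a phosphate transporter, at 0.69, Wap, the whey acidic protein, at 0.70, Aqp3, a water and glycerol channel, at 0.71 and Chrdl2, a BMP antagonist, at 0.73. Saa1 read 2793.7 and 428.8 in MMTV-PPARd mice on GW501516 and on chow, against 82.5 and 9.2 in wild type on GW501516 and on chow. Jchain and Igha lay at 2.47 and 1.86 from Pigr, farther than any of these 5 genes. Nearest to Jchain was Igha at 0.82, followed by Atp6v1c2, Rspo1, Calml3 and Gjb2 at 0.89 to 1.08. Nearest to Igha was Atp6v1c2, a subunit of the proton pump V-ATPase, at 0.18, ahead of Gjb2 (a connexin), Nfe2l3, Tjp3 and Timd2 at 0.56 to 0.72. Atp6v1c2 read 396.7 and 1608.9 in MMTV-PPARd mice on GW501516 and on chow, against 100 and 57.0 in wild type on GW501516 and on chow. None of these 5 is a B lineage marker of the lists used. Markers of those lists such as Ms4a1, Pou2af1 and Cd27 had values under the floor and could not be chosen, so nothing is read from their absence. Gjb2 and Tjp3 encode cell junction proteins of epithelium.

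**Figure D5:**
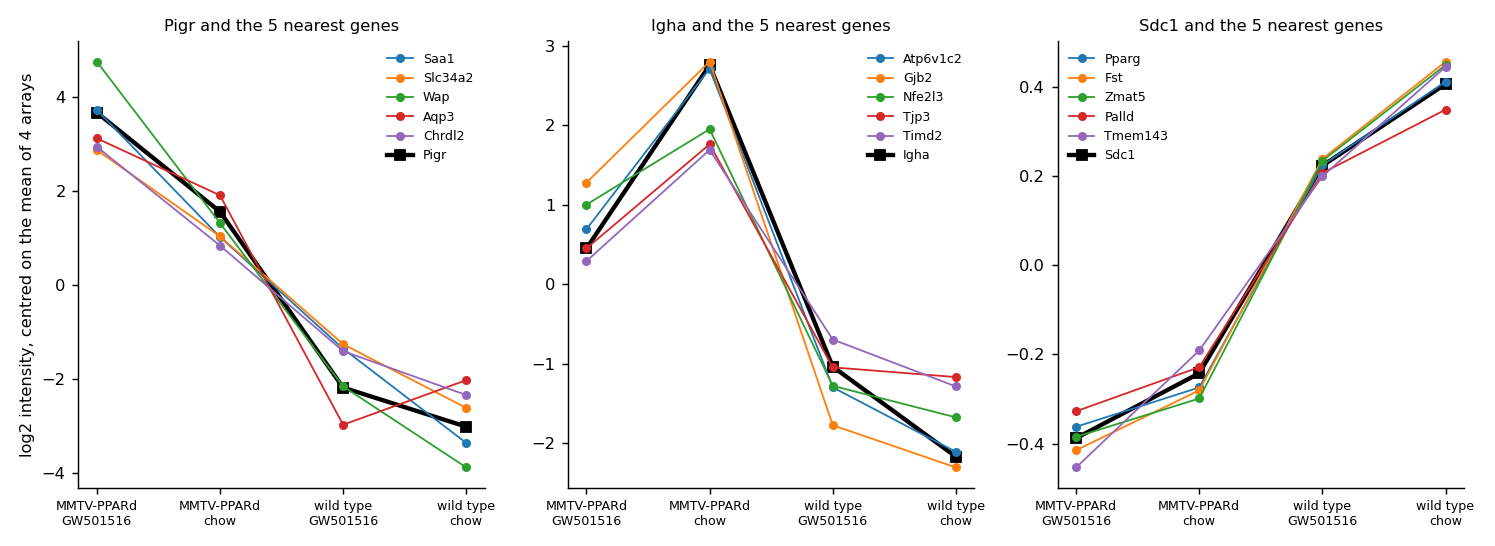
Log2 intensity centred on the mean over 4 arrays for Pigr, Igha and Sdc1 (black squares) and the 5 genes nearest to each (coloured circles); lines join the values of one gene. Values under the floor are drawn at it, and the vertical axes differ. The Pigr panel spans the widest range, the Igha panel peaks in MMTV-PPARd mice on chow, and the Sdc1 panel is lower on both MMTV-PPARd arrays.

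Sdc1, Irf4 and Prdm1, with smaller differences, had closer neighbours, as many genes vary little over the arrays. Nearest to Sdc1 was Pparg, the adipocyte relative of Ppard, at 0.021, with 1035.2 and 1100.5 in MMTV-PPARd mice on GW501516 and on chow, against 1554.7 and 1770.3 in wild type on GW501516 and on chow. Fst, Zmat5, Palld and Tmem143 followed at 0.035 to 0.047. Nearest to Irf4 were Nbl1, Map3k6, Myb, Cavin2 and Gpam, at 0.035 to 0.090, of which Cavin2 (caveolae) and Gpam (triglyceride synthesis) are abundant in adipocytes. Nearest to Prdm1 were Itga6, an integrin of basal epithelial cells, Tmem170, Atp2c1, Ube2t and Il17re, at 0.034 to 0.060. Among the members themselves Sdc1 and Irf4 were the closest pair at 0.30, and Pigr and Irf4 the most distant at 3.17.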

How the data were processed

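The authors deposited linear probe set intensity values from 4 Affymetrix mouse arrays, each 1 pool of 5 mice, with equal RNA per mouse per the labels. Software, summarisation and build are not given in the sources used here. With 2% trimmed at each end, array means were 500.17 to 500.2, so arrays had been scaled. One gene symbol was given for 20393 of 22690 probe sets, several for 691 and none for 1606, and 20364 were matched by gene ID to RefSeq (GRCm38.p6). Control probe sets named no gene. A gene is the probe set with the highest mean. Values under 20.5 were raised to it before log2, and 7835 genes reaching 139 were counted. With 1 array per group there was no test, and the number of arrays limits the precision. Python 3.11.15, numpy 2.4.6 and pandas 2.3.3 were used, and the steps were tested on simulated data. Members and lists were chosen with earlier results of these data known. The genes named were the members, up to 4 per list with the largest difference (6 for immunoglobulins) and the 5 nearest in pattern to each member. Named outside this rule, after their values were seen, were Xbp1, Tnfrsf17, Vcam1, Cxcl12, Itgb7, Tnfrsf13b, Tgfbr1, Tgfbr2, Amy1, Ccl28, Ccr10, Lalba, Krt8, Krt18, Pax5 and genes under the filter. Alternatives changed scaling, floor, filter and probe set choice.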

Additional observations from a re-analysis of the deposited data

Results flagged for a closer look

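The GW501516 effect ran in opposite directions in the genotypes for Jchain, Igha and Prdm1, each with 1 array per group, and the difference was not tested. The effect in MMTV-PPARd mice minus that in wild type was -5.21 for Jchain (-4.51 and 0.71), -3.44 for Igha (-2.30 and 1.13) and -0.70 for Prdm1 (-0.23 and 0.48) on the log2 scale. All 3 values rest on the MMTV-PPARd chow array, on which BioB read 32.4, and Prdm1 stayed under 139 on every array. Between genotypes no member changed direction with diet by its brightest probe set.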

How the results depend on the processing

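In all 7 alternatives were run, on the scaling, the floor, the filter and how probe sets are combined. No member difference past 2-fold changed sign under any of them. Over these settings the log2 difference of MMTV-PPARd over wild type ranged from 4.89 to 6.16 on GW501516 and from 2.78 to 4.76 on chow for Pigr, from 1.01 to 1.03 and from 6.16 to 6.33 for Jchain, and from 1.42 to 1.51 and from 4.85 to 5.16 for Igha. The lowest Pigr values came with the floor at the 40th percentile, which raises the wild-type values. Irf4 was the 1 member at least 2-fold lower on chow, and with the mean over probe sets there were 0. Members at least 2-fold higher with GW501516 in wild type were 1, and 2 with no floor other than 1 intensity unit, Pigr being added. With the filter at the 75th percentile, which counts fewer genes, the numbers of genes at least 2-fold higher and lower were 218 and 131 for the transgene on chow, 131 and 38 for the transgene on GW501516, 134 and 91 for GW501516 in wild type, 170 and 123 for GW501516 in MMTV-PPARd mice, and 154 and 195 for the difference of GW501516 effects. Without a filter, 149 genes were lower for the transgene on GW501516 and 394 for GW501516 in wild type, and 532 were higher and 627 lower in the difference of GW501516 effects. Corresponding numbers as reported were 428 and 290, 221 and 93, 249 and 255, 312 and 319, and 346 and 411. No paired analysis was possible because each group is 1 array, and no replicate could be left out. Low signal limits Pigr in wild type, Prdm1, Ccl28 and the dimmer probe sets of Sdc1 and Irf4.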
